A study of Mus musculus with 24 samples.

Results

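The 8 genes described here encode proteins with which a macrophage addresses T cells: Cd274, Pdcd1lg2, Cd80, Cd86, Cd40, Cd83, Icosl and Cd276. They were taken by symbol from the deposited tables, which list 23420 genes, and all 8 were found. Cd274 (PD-L1) and Pdcd1lg2 (PD-L2) are the ligands of PD-1, an inhibitory receptor of activated T cells. Cd80 and Cd86 bind CD28, which co-stimulates T cells, and CTLA-4, which restrains them. Cd40 is the receptor for CD40 ligand on helper T cells, Cd83 is a surface protein known from mature dendritic cells, Icosl binds the co-stimulatory receptor ICOS, and Cd276 (B7-H3) is a B7 family member whose receptor is not settled. As background, interleukin-4 (IL-4) acts through its receptor and the transcription factor STAT6 to bring macrophages into the alternatively activated state, and PD-L2 is a familiar marker of that state in the mouse, while interferon-γ is the best known inducer of PD-L1.

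RNA was measured by sequencing of poly-A libraries in 24 samples of bone marrow-derived macrophages, in 12 groups of 2 samples. All cells came from male C57BL/6 mice of 3 months and were grown for 6 days with M-CSF. In the antagonist experiment, cells had IL-4 plus GW9662, IL-4 plus the DMSO:EtOH vehicle, GW9662 or the vehicle for 24 h. The group with IL-4 plus vehicle is called IL-4 or IL-4 alone below. GW9662 blocks the ligand site of the nuclear receptor PPARγ, and its dose is not given. In the memory experiment, Pparg knockout-labelled (KO) and wild-type (WT) cells went through the same schedule. The second-exposed group had IL-4 for 24 h, was washed, rested for 24 h in differentiation medium and got IL-4 again for 3 h. The first-exposed group was left untreated until the same 3 h of IL-4. The washed-out group had the 24 h of IL-4 and the 24 h washout with no second IL-4, and the unexposed group had no IL-4 at all. In that experiment no group was sampled at the end of the 24 h of IL-4. IL-4 was used at 20 ng per µl as labelled. Which part of Pparg is deleted, and in which cells, is not stated. Nothing in them tells whether both samples of a group are separate animals or cultures, so a p-value here measures the spread between these samples, which may be technical.

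The promoters are shown because the PD-1 ligands are neighbours whose levels ran differently over first and second exposure. In mm10, Cd274 lies at chr19:29367455-29388095 on the plus strand and Pdcd1lg2 begins 22823 bases after its end, at chr19:29410919-29471161. The lines below are RefSeq sequence of GRCm38.p6, from 250 bases before to 50 after the annotated start, at chr19:29367188-29367487 and chr19:29410669-29410968, both on the plus strand. Capitals mark matches to the STAT6 motif TTCNNNNGAA and to the kappaB motif.
Cd274: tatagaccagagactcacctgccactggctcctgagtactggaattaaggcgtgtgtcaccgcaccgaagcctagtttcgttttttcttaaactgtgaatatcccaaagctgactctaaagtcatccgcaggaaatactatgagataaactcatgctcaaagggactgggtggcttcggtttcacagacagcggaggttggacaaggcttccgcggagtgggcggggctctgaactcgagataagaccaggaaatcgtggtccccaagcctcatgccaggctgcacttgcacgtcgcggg
Pdcd1lg2: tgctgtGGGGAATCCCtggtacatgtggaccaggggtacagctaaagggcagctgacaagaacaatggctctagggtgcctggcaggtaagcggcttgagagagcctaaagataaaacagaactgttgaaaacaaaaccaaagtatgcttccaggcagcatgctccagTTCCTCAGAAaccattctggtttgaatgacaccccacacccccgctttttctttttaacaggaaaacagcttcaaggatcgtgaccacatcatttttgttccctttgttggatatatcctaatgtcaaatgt

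Among the 5 members with a promoter in the RefSeq table, Pdcd1lg2 was the only one with the STAT6 motif, as TTCCTCAGAA from 82 to 73 bases before its start. That motif, searched on both strands, occurs in 2284 of 32851 promoters (6.95%). The kappaB motif occurs in 8.46% of promoters and was found in Pdcd1lg2, from 244 to 235 bases before the start, and in Icosl, on the minus strand from 111 to 102 bases before it. The interferon-response motif GAAANNGAAA (3.44% of promoters) and the DR1 motif of PPARγ and its partner RXR (0.0396%) matched in none of the 5. A match describes letters in this window only. The other members lie on other chromosomes, Cd86 at chr16:36603869-36666081 (minus strand) and Cd80 at chr16:38455561-38496335 (plus) within 1789479 bases of each other, Cd40 at chr2:165055627-165072948 (plus), Cd83 at chr13:43784775-43803132 (plus), Icosl at chr10:78069302-78083913 (plus) and Cd276 at chr9:58524298-58555437 (minus).

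The deposited columns are the authors' means of 2 libraries in CPM, reads of a gene scaled to library size. Both library values behind each mean were recovered from its read steps, with 1 solution for 96 of 96 member values. They are given below as the deeper and then the shallower library of a group. Reads in genes numbered 15932357 to 27693629 per antagonist library and 5444284 to 16494817 per memory library, so that 3 reads stand for 0.105 to 0.181 and 0.183 to 0.526 CPM. The deeper WT second-exposed library stood apart from all others, with fibroblast markers at 1082 CPM in sum, against 37.2 CPM in its partner and at most 9.83 CPM in the other 14 memory libraries. Col1a1, a collagen chain, read 492 and 16.9 CPM in these 2 libraries. The macrophage markers of that group summed to 8801 CPM, against 12240 to 15200 CPM in the other memory groups. WT second-exposure results are therefore also given without that library, and its part in them was not tested otherwise. Those values leave 1 library in the group, as does leaving out a library of any other group. In the fits each group has a weight, lower where its libraries differ more. The remaining library keeps the weight of this group, 0.067, against 0.90 to 2.14 for the other memory groups. A call lost or absent in such a fit therefore decides nothing by itself. Of the 8 WT libraries 7 but none of the KO libraries were counted in a way that gives genes with sequence copies more reads. That difference and genotype cannot be told apart. Of a member's sampled 50-base words, at most 1.4% are shared with other genes.

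Macrophage markers were present in every group (7 of 7 at 1 CPM or more, Csf1r group means 3718 to 8360 CPM). Mertk had group means of 29.3 to 123 CPM in the memory experiment, and Cd14 of 57.9 to 571 CPM in the antagonist experiment. The sum of the macrophage list was 11430 CPM in IL-4 and 15900 CPM in vehicle cells at 24 h. Of 5 B cell markers 1, Cd79b, reached 1 CPM in a group, with group means of 1.94 to 6.54 CPM. Pax5 was at 0 in every group of both experiments. The B cell list summed to 2.81 CPM in IL-4 and 6.69 CPM in vehicle cells at 24 h. The 8 dendritic cell markers moved with IL-4, with a sum of 132 CPM in IL-4 and 19.1 CPM in vehicle cells. Batf3 made most of the IL-4 sum, at 108 and 141 CPM, against 5.96 and 7.18 CPM with vehicle. Flt3, Zbtb46, Xcr1 and Clec9a had group means of at most 2.56 CPM, Ccr7 of at most 3.20 CPM and Cd209a of at most 4.11 CPM. Fscn1 read 97.0 and 3.73 CPM in the WT second-exposed libraries, the first of them the library that stands apart. The 4 neutrophil markers summed to 154 CPM with IL-4 and 273 CPM with vehicle at 24 h, and to 26.8 CPM in washed-out and 68.7 CPM in unexposed WT cells. The T cell marker list summed to 25.1 CPM with IL-4 and 141 CPM with vehicle, mostly Cd28. The part of these changes in the results was not tested, and in bulk RNA fewer cells of a type and less RNA per cell cannot be told apart. The T cell receptors of these ligands were low, with Pdcd1 (PD-1) at most 0.116 CPM and Ctla4 at most 0.164 CPM, whereas Cd28 had group means of 23.4 to 189 CPM. Pparg read 22.3 and 19.9 CPM in unexposed KO and 24.2 and 21.9 CPM in unexposed WT cells (adjusted p = 0.54, limma), which does not test the knockout because the deleted part is not stated.

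"Rose" and "fell" below mean a Benjamini-Hochberg adjusted p under 0.05 in limma over all tested genes, on log2(CPM + 1), a scale that understates changes of low genes. A first 3 h of IL-4 called 7 of the 8 members in WT cells, 5 higher and 2 lower, against 49.9% of all 11331 genes (24.8% higher, 25.2% lower). In KO cells it raised 5 and lowered 1, against 44.7% called (21.7% and 23%). At 24 h, IL-4 raised 2 and lowered 3 members, against 22.3% of genes called (11.7% and 10.6%), and IL-4 plus GW9662 against GW9662 raised 4 and lowered 3, against 48.9% (25% and 24%). The 2 libraries with IL-4 alone differed most in that experiment. Their group had a weight of 0.28, against 1.19 to 2.19 for the others, so these counts are not measured alike. After washout 4 members were higher and none lower in WT cells, against 15.4% of genes called (7.84% and 7.58%), while in KO cells 4 were higher and 2 lower, against 20.3% (9.69% and 10.6%). Restimulation raised 6 and lowered 1 in KO cells, against 36.3% (19.6% and 16.7%), and raised 2 and lowered 1 in WT cells, against 3.16% (1.62% and 1.54%). Without group weights, Cd274, Cd83, Cd86 and Cd276 were called in WT restimulation as well. The median log2 difference over the members was 1.11 for the first WT exposure and 0.28 for 24 h of IL-4, against -0.01 and -0.02 over all genes tested.

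**Figure D1:**
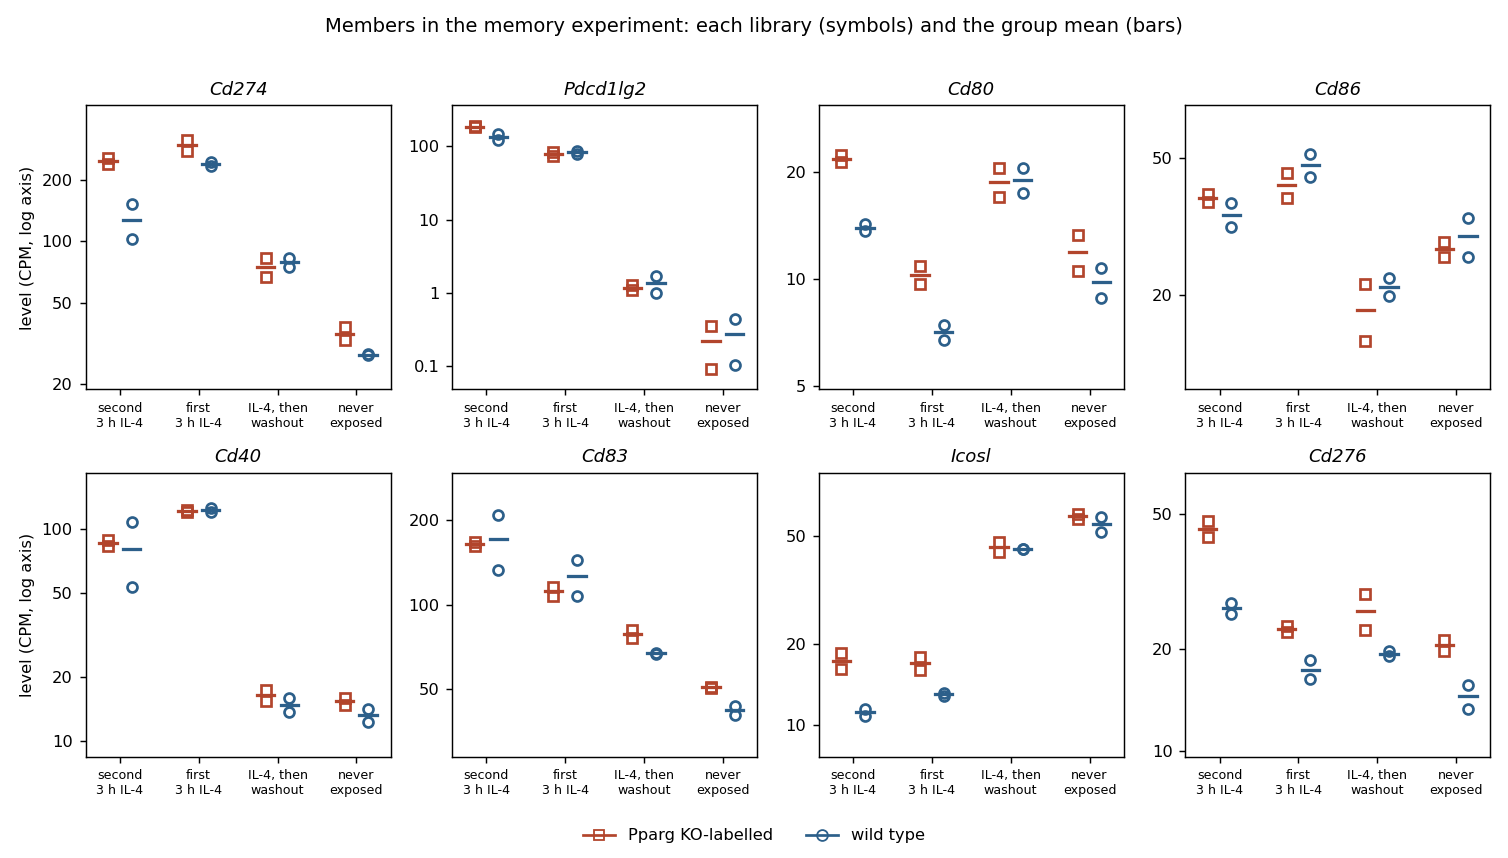
Level of each of the 8 genes in CPM on a log axis in the memory experiment, 1 panel a gene, with a point for each recovered library and a bar for the authors' mean of each group. Pdcd1lg2 is near 0 in unexposed and washed-out cells and highest in second-exposed KO cells at 183 and 190 CPM, while Cd274 is highest in first-exposed KO cells at 276 and 314 CPM.

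Pdcd1lg2 was all but silent without IL-4 and strongly induced by it at each time. First-exposed WT libraries read 87.4 and 78.5 CPM and unexposed WT libraries 0.104 and 0.442 CPM, which are 1 and 4 reads. First-exposed KO libraries read 73.7 and 84.4 CPM, against 0.0913 and 0.350 CPM (1 and 3 reads) in unexposed KO libraries. The groups lie far apart in either genotype, and the log2 difference was 6.05 in WT (SE 0.16, adjusted p = 8.1e-14, limma) and 6.04 in KO cells (SE 0.16, adjusted p = 1.1e-13). The test of the difference between genotypes gave -0.01 (adjusted p = 0.99). A day of IL-4 left the gene at 149 and 174 CPM, against 0.419 and 0.236 CPM with vehicle (log2 difference 6.94, SE 0.19, adjusted p = 2.2e-06). An antisense gene, A930007I19Rik, overlaps an exon of Pdcd1lg2, and its highest group mean was 0.541 CPM; the library kit does not mark strand, so reads of such pairs cannot be told apart.

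In washed-out cells Pdcd1lg2 was low but above its unexposed level. Washed-out WT libraries read 1.00 and 1.70 CPM, or 10 and 15 reads, and washed-out KO libraries 1.08 and 1.27 CPM, or 9 reads each. The ratio of the authors' means, washed-out over unexposed, was 4.96 in WT and 5.32 in KO cells, on 1 to 4 reads per unexposed library. Each exceeded every unexposed library of its genotype, by 0.88 in WT (adjusted p = 0.0055, limma) and 0.84 in KO cells (adjusted p = 0.0017). The WT call was lost when either of 2 libraries was left out, with adjusted p up to 0.09, and with counting kind as a term (0.098). A second exposure then took the gene above its first-exposure level. Second-exposed KO libraries read 183 and 190 CPM, against 73.7 and 84.4 CPM in first-exposed ones, and it was higher by 1.23 (SE 0.17, adjusted p = 5.9e-05). Second-exposed WT libraries read 122 and 148 CPM, against 87.4 and 78.5 CPM at the first exposure, which also do not overlap but did not pass (0.69, SE 0.56, adjusted p = 1.0; 0.83 without the library that stands apart). The gain over the washed-out state was 6.43 in KO cells (adjusted p = 2.0e-13) and 5.86 in WT cells (adjusted p = 5.8e-05), or 6.0 without that library. The second response minus the first was 0.39 in KO cells (adjusted p = 0.42), so a larger response, as opposed to a higher level, was not shown.

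Cd274, in contrast, had its highest memory-experiment levels at the first 3 h. First-exposed WT libraries read 243 and 234 CPM, against 27.5 and 27.9 CPM in unexposed ones, and first-exposed KO libraries 276 and 314 CPM, against 37.8 and 32.6 CPM. No library of one state overlaps the other, and Cd274 rose by 3.06 in WT (SE 0.09, adjusted p = 5.3e-13, limma) and by 3.03 in KO cells (SE 0.10, adjusted p = 7.1e-13). At 24 h, IL-4 libraries read 103 and 77.7 CPM and vehicle libraries 61.1 and 47.1 CPM, a difference of 0.73 that just missed the threshold (SE 0.23, adjusted p = 0.060; 0.91 log2 units without the deeper vehicle library). The difference passed without group weights (adjusted p = 0.021, limma) and with counting kind as a term (0.00023). With GW9662 in both arms it passed, at 107 and 92.9 CPM against 52.7 and 51.4 CPM (0.93, SE 0.12, adjusted p = 0.00047). The tables were normalized separately, so the responses at 24 h and 3 h stand side by side with no test between them.

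Cd274 was also above its unexposed level after washout, by a ratio of the authors' means of 2.84 in WT and 2.12 in KO cells. Washed-out libraries read 74.9 and 82.5 CPM in WT cells (1.47 above unexposed, SE 0.11, adjusted p = 4.7e-07, limma) and 82.5 and 66.9 CPM in KO cells (1.06, SE 0.10, adjusted p = 1.5e-06). In KO cells the second exposure then added less than the first had, from a starting level that was higher by 1.06. A lower level at the second than at the first exposure was not shown. Second-exposed KO libraries read 238 and 254 CPM, all above the washed-out ones (1.71, SE 0.10, adjusted p = 1.6e-09) and below both first-exposed ones (-0.26, adjusted p = 0.068). The second response was smaller than the first by 1.32 log2 units in KO cells (95% interval -1.61 to -1.03, adjusted p = 0.00013). Cd274 was the 1 member called in that comparison, in which 1.76% of 11421 genes were called (0.578% lower and 1.18% higher); without group weights the adjusted p was 0.15.

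In WT cells the second exposure left Cd274 at 152 and 103 CPM, against 243 and 234 CPM at the first exposure and 74.9 and 82.5 CPM after washout. The second-exposed libraries lie between the other 2 states without touching either, and their restimulation gain of 0.66 did not pass (SE 0.34, adjusted p = 0.36, limma; 0.38 without the library that stands apart). The second response minus the first was -2.40 (95% interval -3.15 to -1.65), with an adjusted p of 0.062 that sat at the threshold. It was 0.042 with voom, 0.0022 without group weights and 0.37 without the filter on low values, and without the library that stands apart the log2 value was -2.68. In that comparison limma called 0 members, 2 members had an unadjusted p under 0.05, and voom called 1; over all 12060 genes limma called 0% and 616 had an unadjusted p under 0.05.

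**Figure D2:**
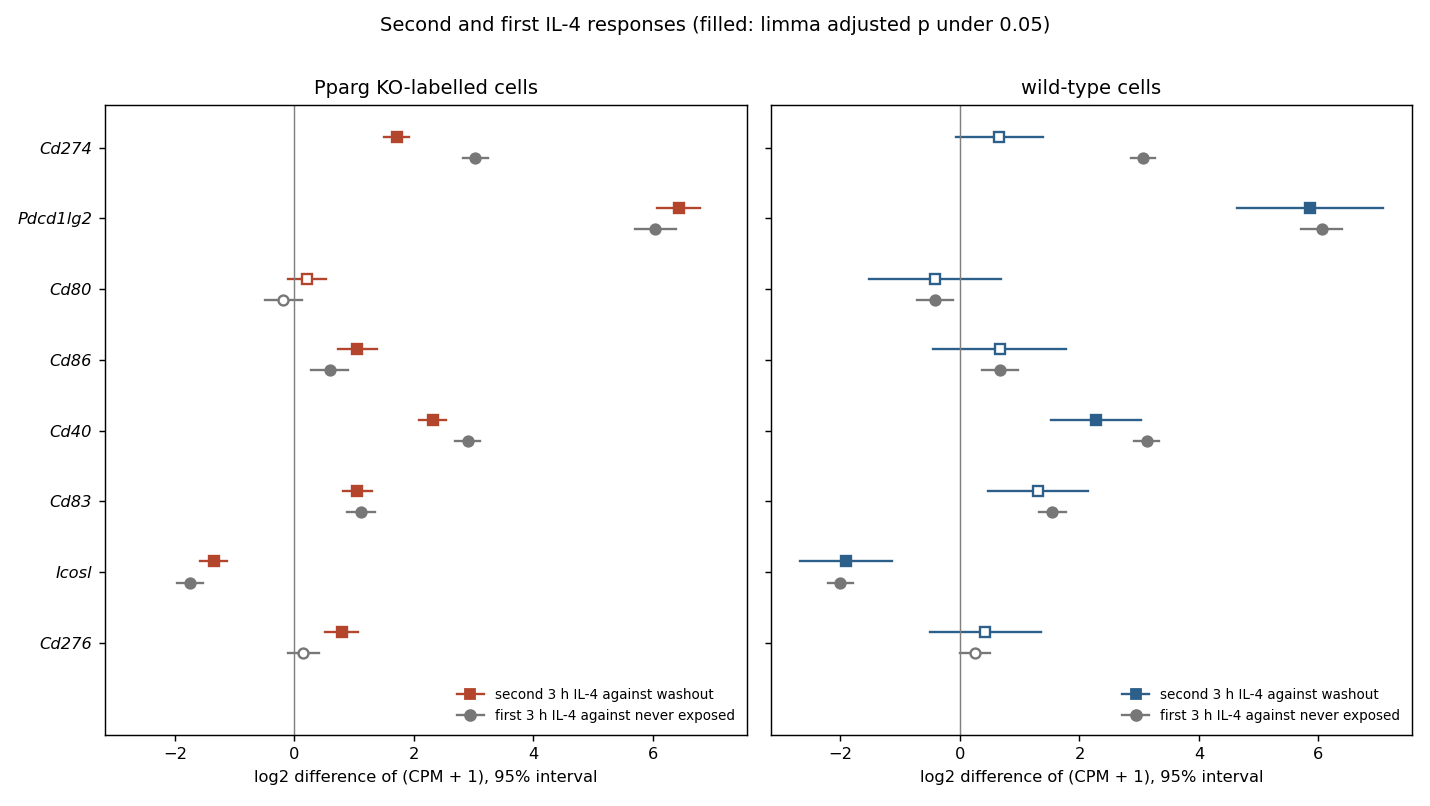
Log2 difference of each gene at the second exposure (over washed-out cells) beside that at the first exposure (over unexposed cells), KO and WT, with bars for the 95% interval from limma and filled symbols for calls. Cd274 lies lowest relative to its first response, by -1.32 in KO and -2.40 in WT cells, and the WT second-exposure bars are wide.

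Cd80 and Cd86, the pair of CD28 and CTLA-4 ligands, fell together at 24 h. IL-4 libraries read 1.06 and 1.21 CPM of Cd80, against 6.94 and 6.24 CPM with vehicle (-1.83, SE 0.22, adjusted p = 0.00098, limma). For Cd86 they read 16.2 and 10.4 CPM, against 42.3 and 46.2 CPM (-1.69, SE 0.24, adjusted p = 0.0024). Neither gene's IL-4 libraries reached its vehicle libraries. At 3 h the pair moved apart in WT cells. Cd86 read 51.2 and 44.0 CPM in first-exposed and 25.8 and 33.5 CPM in unexposed WT cells and rose (0.67, adjusted p = 0.0011), as it did in KO cells, at 45.1 and 38.3 CPM against 28.6 and 25.9 CPM (0.59, adjusted p = 0.0034; 0.059 without the deeper first-exposed KO library). Cd80 read 7.40 and 6.75 CPM, against 10.7 and 8.83 CPM, and fell in WT cells (-0.41, adjusted p = 0.025, but up to 0.23 with 1 library left out). In KO cells its libraries overlap, at 10.8 and 9.65 CPM against 13.2 and 10.5 CPM (-0.19, adjusted p = 0.32).

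After washout Cd80 was higher and, in KO cells, Cd86 lower than without exposure. Cd80 read 17.5 and 20.4 CPM in washed-out WT and 17.0 and 20.4 CPM in washed-out KO cells, above every unexposed library of 10.7 and 8.83 CPM in WT and 13.2 and 10.5 CPM in KO cells. It was higher by 0.89 in WT (adjusted p = 0.0026, limma) and 0.62 in KO cells (adjusted p = 0.0073, limma). The KO call of Cd80 held in 2 of 4 fits with 1 library left out. Cd86 was lower in KO cells, at 21.5 and 14.8 CPM against 28.6 and 25.9 CPM (-0.58, adjusted p = 0.011; up to 0.25 with 1 library left out), and in WT cells read 19.9 and 22.5 CPM against 25.8 and 33.5 CPM (-0.46, adjusted p = 0.094). On restimulation Cd86 rose in KO cells to 37.1 and 39.2 CPM (1.05, adjusted p = 4.5e-05), while Cd80 read 22.2 and 21.3 CPM (0.21, adjusted p = 0.30). In KO cells Cd80 was thus higher at the second exposure, at 22.2 and 21.3 CPM against 10.8 and 9.65 CPM at the first (1.02, SE 0.15, adjusted p = 0.00014), and Cd86 overlapped (-0.12, adjusted p = 0.62). In WT cells Cd80 read 14.2 and 13.6 CPM at the second and 7.40 and 6.75 CPM at the first exposure, apart but not past the test (0.89, adjusted p = 0.91; 0.86 without the library that stands apart).

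Cd40 was the other strong early responder. First-exposed WT libraries read 126 and 120 CPM and unexposed ones 12.3 and 14.1 CPM (3.13, SE 0.10, adjusted p = 6.6e-13, limma). In KO cells they read 123 and 120 CPM, against 14.8 and 15.97 CPM (2.90, SE 0.10, adjusted p = 2.2e-12). The first-exposed libraries of both genotypes share a range. Washed-out Cd40 libraries overlapped the unexposed ones, at 13.8 and 15.9 CPM in WT cells (0.15, adjusted p = 0.44, limma). In KO cells they read 15.4 and 17.5 CPM (0.09, adjusted p = 0.58, limma). Restimulated KO libraries reached 88.7 and 82.9 CPM, a rise of 2.32 (adjusted p = 8.2e-11) to a level below both first-exposed libraries (-0.50, adjusted p = 0.0024). WT libraries read 53.0 and 107 CPM at the second exposure, a spread wider than that of any other group for this gene, with a rise of 2.28 over washout (adjusted p = 0.0025). The difference was 2.78 without the library that stands apart, but 1.775 without its partner. At 24 h IL-4 libraries read 34.8 and 54.8 CPM, against 29.6 and 27.3 CPM with vehicle, above but not past the test (0.60, adjusted p = 0.059; 0.018 without the deeper IL-4 library).

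Cd83 rose at both times. First-exposed WT libraries read 145 and 107 CPM and unexposed ones 43.6 and 40.4 CPM (1.55, adjusted p = 8.3e-09, limma), and KO libraries 116 and 107 CPM, against 50.8 and 50.6 CPM (1.12, adjusted p = 4.7e-07). IL-4 at 24 h gave 128 and 175 CPM, against 71.9 and 69.4 CPM with vehicle (1.07, SE 0.17, adjusted p = 0.0043; 0.053 without the shallower IL-4 library). It was higher after washout than in unexposed cells, at 67.3 and 66.6 CPM in WT (0.66, adjusted p = 0.0030) and 81.4 and 75.9 CPM in KO cells (0.62, adjusted p = 0.00094). Without group weights neither washout call held (adjusted p = 0.057 in WT and 0.084 in KO cells, limma). Second-exposed KO libraries, at 162 and 167 CPM, lay above both first-exposed ones (0.56, adjusted p = 0.0021). The WT libraries, at 132 and 209 CPM, overlapped the first-exposed 145 and 107 CPM (0.41, adjusted p = 1.0; 0.74 without the library that stands apart).

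Icosl was the member that IL-4 lowered most. IL-4 libraries at 24 h read 3.54 and 5.55 CPM, against 51.9 and 45.6 CPM with vehicle (-3.19, SE 0.21, adjusted p = 7.8e-05, limma). Icosl was also lower at 3 h in the memory experiment, which was normalized separately. First-exposed WT libraries read 13.2 and 12.8 CPM, against 51.5 and 58.8 CPM in unexposed WT cells (-2.00, adjusted p = 1.5e-10, limma). KO cells gave 17.9 and 15.97 CPM, against 57.8 and 60.3 CPM (-1.74, adjusted p = 9.2e-10). Washed-out libraries read 44.8 and 44.6 CPM of Icosl in WT cells (-0.30 against unexposed, adjusted p = 0.12, limma). In KO cells they read 43.7 and 47.3 CPM (-0.37, adjusted p = 0.019, limma). That KO call held in 1 of 4 fits with 1 library left out. All washed-out libraries lay below every unexposed library of the genotype. A second exposure lowered Icosl from the washed-out level, to 18.5 and 16.1 CPM in KO cells (-1.35, adjusted p = 5.3e-08, limma). In WT cells it read 10.8 and 11.5 CPM (-1.91, adjusted p = 0.010, limma, and -1.87 without the library that stands apart). The first- and second-exposed KO levels share a range (0.03, adjusted p = 0.88).

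Cd276 passed no test at a first exposure. It read 8.65 and 10.7 CPM with IL-4 at 24 h, around the 10.04 and 9.89 CPM of vehicle (-0.05, 95% interval -0.57 to 0.48, adjusted p = 0.92, limma). At 3 h it read 18.5 and 16.3 CPM, against 13.4 and 15.7 CPM in WT (0.25, adjusted p = 0.098), and 22.5 and 23.3 CPM, against 21.3 and 19.8 CPM in KO cells (0.15, adjusted p = 0.34). It rose on restimulation of KO cells, to 42.9 and 47.7 CPM, against 22.7 and 29.2 CPM after washout (0.79, SE 0.13, adjusted p = 0.00012). That level was also above the first exposure (0.95, SE 0.13, adjusted p = 4.7e-05). The responses themselves were not shown to differ (0.64, adjusted p = 0.082). Second-exposed WT libraries read 25.4 and 27.4 CPM, above the first-exposed 18.5 and 16.3 CPM without passing (0.58, adjusted p = 1.0; 0.63 without the library that stands apart). Gm10657 overlaps an exon of Cd276 and AC119228.1, an antisense gene, one of Cd274; neither was analysed here.

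Second against first exposure thus gave 4 members higher (Pdcd1lg2, Cd80, Cd83, Cd276) and 1 lower (Cd40) in KO cells, against 24% of all 11176 genes (13.3% and 10.6%). In WT cells limma called 0 members, against 0.177% of 11866 genes, with 854 genes and 1 member (Cd274) at an unadjusted p under 0.05; voom called 0 members. Without group weights the KO calls of Cd40 (adjusted p = 0.28, limma) and Cd83 (0.099) were lost. In WT cells 4 members were then called, Cd274 among them (adjusted p = 0.0053, limma). The WT count of 0 thus depended on the weight of 0.067 given to the second-exposed WT group, and the counts of KO and WT cells are not measured alike. Leaving out the library that stands apart keeps 1 library at the low weight of its group, so a count of calls from that fit could not decide this. Cd274 was at -1.21 at the second against the first WT exposure without that library, and at -0.93 with it. Cd40 was at -0.19 without that library and -0.70 with it, Cd86 at -0.35 and -0.46, and Icosl at -0.16 and -0.20. The WT restimulation values not yet given were, without and with that library, 1.63 and 1.301 for Cd83, 0.78 and 0.67 for Cd86, 0.48 and 0.42 for Cd276, and -0.45 and -0.42 for Cd80. None passed the test with all libraries and group weights.

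**Figure D3:**
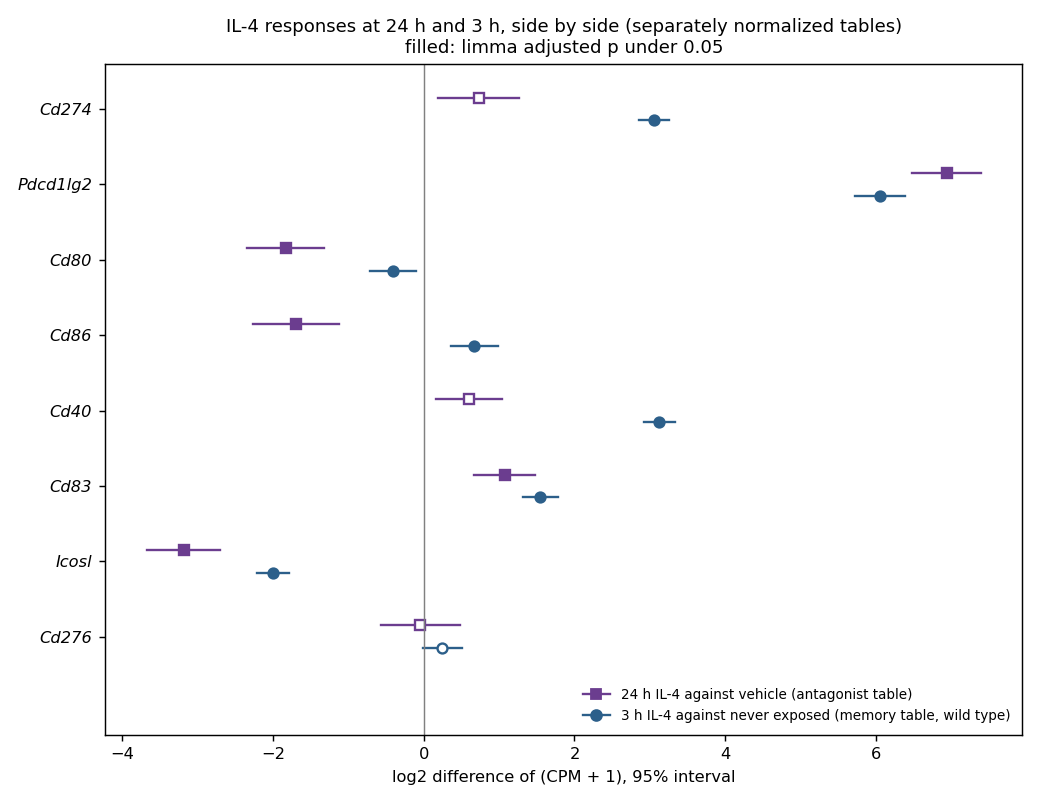
Log2 difference of each gene after 24 h of IL-4 (over vehicle, antagonist experiment) beside that after a first 3 h (over unexposed, WT cells, memory experiment), with 95% intervals from limma and filled symbols for calls. The experiments were normalized separately and are not tested against each other; Cd86 is at -1.69 at 24 h and 0.67 at 3 h in WT cells.

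No member passed the test for an effect of GW9662. GW9662 libraries read 52.7 and 51.4 CPM of Cd274, against 61.1 and 47.1 CPM with vehicle, and 46.7 and 49.5 CPM of Icosl, against 51.9 and 45.6 CPM. For both genes the groups overlap. For Cd40, at 25.8 and 25.6 CPM with GW9662 against 29.6 and 27.3 CPM with vehicle (-0.14), and Cd276, at 10.07 and 11.7 CPM against 10.04 and 9.89 CPM (0.11), they do not, and neither passed (adjusted p = 1.0 for both, limma). Limma called 0 of the 7 members tested, with none at an unadjusted p under 0.05 and none by voom, against 0% of 10875 genes, of which 219 had an unadjusted p under 0.05. Adding GW9662 to IL-4 gave 0 calls among 8 members, and 0% of 10804 genes were called, with 5 genes and 0 members at an unadjusted p under 0.05; voom called 0 members. Cd80 differed most between these arms, at 1.73 and 1.94 CPM with both agents and 1.06 and 1.21 CPM with IL-4 alone (0.41, 95% interval -0.09 to 0.91, adjusted p = 1.0). The IL-4 response of Cd274 differed with GW9662 by 0.20 (95% interval -0.40 to 0.80) and that of Pdcd1lg2 by -0.22. That test called 0 members and 0% of 11169 genes by limma, with 24 genes and 0 members at an unadjusted p under 0.05; voom called 0 members. Intervals this wide do not show that the responses are alike.

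**Figure D4:**
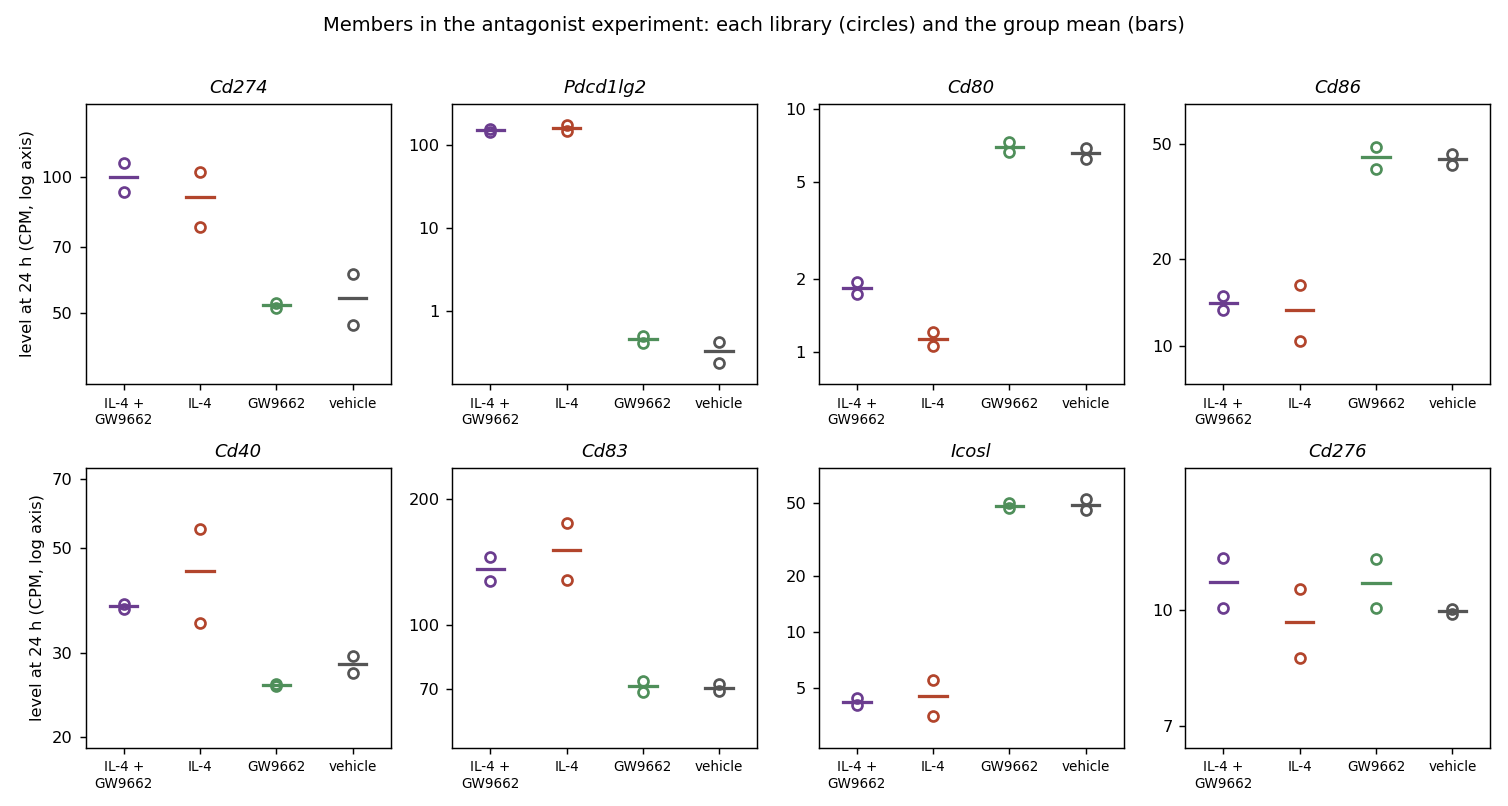
Level of each of the 8 genes in CPM on a log axis after 24 h with IL-4 plus GW9662, IL-4, GW9662 or vehicle, 1 panel a gene, with a point for each recovered library and a bar for the authors' mean. Groups with IL-4 stand apart from groups without it for 7 genes, whereas the Cd276 libraries all lie between 8.65 and 11.8 CPM.

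Few members differed between KO and WT cells past the test. In unexposed cells Cd274 was higher, at 37.8 and 32.6 CPM in KO against 27.5 and 27.9 CPM in WT (0.33, adjusted p = 0.023, limma), and so was Cd276, at 21.3 and 19.8 CPM against 13.4 and 15.7 CPM (0.48, adjusted p = 0.011). These are 2 of 7 tested members, against 17.9% of 11266 genes (7.44% higher and 10.4% lower), and neither call held without group weights or in all fits with 1 library left out. With counting kind as a term Cd274 was at 0.19 (adjusted p = 0.77, limma) and Cd276 at 0.53 (adjusted p = 0.56). At the first exposure Icosl was higher, at 17.9 and 15.97 CPM in KO against 13.2 and 12.8 CPM in WT (0.36, adjusted p = 0.038, lost when any of the 4 libraries was left out), the 1 member called against 9.59% of genes (1.78% higher and 7.81% lower). In washed-out cells limma called 0 members and 5.29% of genes, with 1 member (Cd276) and 3126 genes at an unadjusted p under 0.05; voom called 0 members. At the second exposure Cd274 read 238 and 254 CPM in KO against 152 and 103 CPM in WT, apart by 0.97 (95% interval 0.26 to 1.69, adjusted p = 0.56; 1.25 without the library that stands apart). There limma called 0 members and 0.0253% of genes, with 1 member (Cd274) and 771 genes at an unadjusted p under 0.05; voom called 0 members. Neither the first response (0 members, 0.0348% of genes, 1 member and 1481 genes at an unadjusted p under 0.05, 0 by voom) nor the restimulation response (0 members, 0% of genes, 1 member and 931 genes, 0 by voom) was called different between genotypes for any member. Without group weights limma called 4 members for KO against WT cells at the second exposure. Leaving out the library that stands apart keeps 1 WT library at the low weight of its group, so counts from that fit could not decide this.

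Per kilobase of the longest annotated transcript of each gene, the leading member changed with the state. Which transcript was expressed was not tested, and the order of members depends on the length used. Icosl led in unexposed WT cells at 19.6 CPM per kb, before Cd83 at 17.0 and Cd86 at 11.7 CPM per kb, while Pdcd1lg2 stood at 0.158. Cd274 led in first-exposed WT cells at 65.9 CPM per kb, before Cd83 at 50.9 and Pdcd1lg2 at 48.0 CPM per kb. Pdcd1lg2 led in second-exposed KO cells at 108 CPM per kb, against 68.0 for Cd274, and at 24 h of IL-4 at 93.5 CPM per kb, against 25.0 for Cd274. Cd80 was lowest of all in the 24 h IL-4 group, at 0.357 CPM per kb.

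Over the 8 memory group means of log2(CPM + 1), the genes most like Pdcd1lg2 among 9538 were Arg1 (Pearson r 0.999) and Irf4 (0.997). Tes (0.999) and Sdc4 (0.998) were most like Cd40, Numb (0.998) most like Icosl, Tgm2 (0.991) most like Cd83, Ppat (0.989) most like Cd86, Stau1 (0.987) most like Cd274, Rnf128 (0.987) most like Cd80 and Prnp (0.975) most like Cd276. These are descriptions over 8 group means of 2 libraries each.

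Other genes of the pathways were counted from lists chosen with earlier results of these data known. Of 20 other ligands for T cell receptors, 11 could be tested at 24 h, and 0 rose and 6 fell, with a median log2 difference of -0.71, against -0.02 over all genes tested. Of all genes tested at 24 h, 11.7% rose and 10.6% fell. Tnfsf14, which encodes LIGHT, had mean CPM of 1.89 with IL-4 and 12.0 with vehicle (-2.18), and Lgals9, galectin-9, 102 and 232 (-1.18). At the first WT exposure 4 of 12 rose and 4 fell, against 24.8% and 25.2% of all genes (median 0.05, against -0.01), among them Pvr, a ligand of CD226 and TIGIT, at 31.6 against 13.5 CPM (1.17), and Tnfsf9, the 4-1BB ligand, at 3.71 against 16.5 CPM (-1.89). In the CD40 signalling list of 11, 1 gene rose and 2 fell at 24 h, against 11.7% and 10.6% of all genes (median -0.28), namely the adaptor Traf5 at 29.1 against 7.31 CPM (1.86), Birc3 at 44.1 against 105 CPM (-1.26) and Relb (-0.94). At the first WT exposure 3 rose and 3 fell, against 24.8% and 25.2% (median 0.07).

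Of 8 genes of the IL-4 receptor and STAT6, 1 rose and 2 fell at 24 h, against 11.7% and 10.6% of all genes (median -0.03). Irf4 read 170 against 20.6 CPM (2.99), the receptor chain Il4ra 198 against 493 CPM (-1.32) and Il13ra1 0.884 against 15.5 CPM (-3.13). At the first WT exposure 2 of the list rose and 2 fell, against 24.8% and 25.2% of all genes (median -0.02), and Il4ra rose, to 1030 against 299 CPM (1.79). Of 10 interferon-side regulators of PD-L1, 1 rose and 5 fell at 24 h, against the same shares (median -0.54), with the kinase Jak2 at 66.0 against 34.3 CPM (0.91) and the interferon receptor chain Ifngr1 at 186 against 362 CPM (-0.98). At the first WT exposure 5 rose and 3 fell, against 24.8% and 25.2% of all genes (median 0.24), with Jak2 at 112 against 43.0 CPM (1.36) and Irf1 at 187 against 101 CPM (0.89). In the second minus the first response of KO cells, 2 of that list had a called positive difference, against 1.18% of all genes, Ifngr1 (0.50, adjusted p = 0.018, limma) and Ifnar1 (0.42, adjusted p = 0.041), a chain of the type I interferon receptor. Both had lower means with IL-4 each time, and the second drop was the smaller. Ifngr1 went from 461 to 251 CPM and then from 346 to 266 CPM, and Ifnar1 from 321 to 185 CPM and then from 240 to 185 CPM. Of 5 partners of surface turnover, 2 of 4 tested fell at 24 h, against 10.6% of all genes (median -0.50), Cmtm6, which keeps PD-L1 at the surface, at 129 against 242 CPM (-0.90) and Cmtm4 at 25.0 against 44.0 CPM (-0.79). The invariant chain Cd74, of the same list, rose after washout in WT cells, where 7.84% of all genes did, to 5269 against 1003 CPM (2.40, adjusted p = 4.7e-07).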

How the data were processed

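The genome was mm10 and the tools were Cufflinks 2.0.2 and TopHat2 2.0.7 per the submitters' processing notes, which state no role for each. The authors deposited 1 table per experiment with 1 column per group, recorded here as signal: means of 2 samples in CPM-like units, with no spread. Of 171808 values above 0, 170131 (99.0%) split into 1 pair of whole read counts, 1677 into several and 0 into none. Where several fitted, the mean was used once, with weight 2. Replicate numbers of the split libraries are not known, so they are called deeper and shallower.

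The averaged columns are not counts, so limma 3.58.1 (R 4.3.3) was run on log2(CPM + 1) for all genes whose mean reached 1 CPM in some group of the comparison, with 1 coefficient and 1 weight per group and all libraries of the table. Benjamini-Hochberg adjusted p under 0.05 was called. Alternatives were a pseudocount of 0.25 CPM, no filter, no group weights, median-of-ratios scaling, voom on recovered reads, ratios of deposited means beyond 2-fold, a term for counting kind, and leaving out each library. A fit on antagonist libraries of the low counting kind alone was added after seeing the data. The splitting and the tests were tried on simulated data in which all libraries had the same spread. The unequal spread and weights of the real groups were not simulated. Gene locations are GENCODE M21 and promoters RefSeq (GRCm38.p6). The members and lists were chosen with earlier results of these data known. All 8 members are named, and in each list up to 4 genes with the largest called change per comparison, from which examples are printed; the 3 genes most like each member were taken by Pearson r among genes reaching 10 CPM. Some genes of the lists are not reported here. Intervals cover 95% and floors of 3 reads cover counting error only.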

Additional observations from a re-analysis of the deposited data

Results flagged for a closer look

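The response of Cd274 to a second exposure differed from that to a first in KO cells by -1.32 log2 units (SE 0.14, adjusted p = 0.00013, limma), and this test of the difference between the responses is what marked it for a closer look. Second-exposed KO libraries read 238 and 254 CPM over washed-out ones at 82.5 and 66.9 CPM, and first-exposed KO libraries 276 and 314 CPM over unexposed ones at 37.8 and 32.6 CPM. The washed-out starting level was higher than the unexposed one by 1.06 (adjusted p = 1.5e-06, limma). The second-exposed level did not pass as lower than the first-exposed one (-0.26, adjusted p = 0.068, limma).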

How the results depend on the processing

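Over the alternatives, 2048 member values were recomputed: 1947 stayed called or stayed uncalled, 65 lost a call, 36 gained one and 0 called values turned. Of the 1947, 99 changed direction, all of them uncalled in both fits. Counts of members called that moved by over 1.5 times were as follows. Beyond 2-fold on the deposited means, 4 were counted for IL-4 plus GW9662 against GW9662, 1 each for washout in WT and KO, for the WT second minus first response and for the restimulation difference between genotypes, 2 for second against first exposure in KO, and 0 for KO against WT unexposed and first-exposed. Without group weights, limma called 7 for WT restimulation, 4 each for WT second against first and KO against WT second exposure, 3 each for KO washout and KO second against first, 1 for the WT second minus first response, and 0 for the same in KO and for KO against WT unexposed and first-exposed. The WT second minus first response had 1 call with pseudocount 0.25, with voom or with counting kind as a term. In KO it had 2 with median-of-ratios scaling or counting kind. KO against WT had 1 unexposed call with voom or no filter and 0 with counting kind, and at the first exposure 3 with median-of-ratios scaling and 0 with voom or counting kind. Leaving out 1 library gave 1 to 4 calls for WT restimulation, 3 to 6 for KO washout, 0 to 2 for KO against WT unexposed, and 0 to 1 for KO against WT first-exposed, the first-response difference between genotypes and the WT second minus first response. The causes were not tested. No paired analysis was possible because the replicate numbers of the split libraries are not known. Depth limits Pdcd1lg2 in unexposed cells, at 1 to 4 reads a library.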
